A study of Rattus norvegicus with 196 samples.

Results

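The centromedial amygdala (CMA) of fluoxetine-treated rats (FT) was compared with that of control rats (Sham) by bulk RNA-seq. Its samples were all those labelled CMA, 8 of the 196 samples in a series of 25 brain regions, with 4 FT and 4 Sham libraries numbered 1, 3, 4 and 5 in each group. FT rats had taken 18 mg/kg body weight of fluoxetine, a selective serotonin reuptake inhibitor, in drinking water for 6 weeks, and Sham rats had taken water alone. All were male Long-Evans rats of Charles River stock, and no genotype or other agent is given for either group. Their labelled age of 2 months is that at which the study put rats into groups. Tissue was taken after the 6 weeks of treatment. Each library came from tissue punches pooled over several animals, and FT and Sham punches with the same number had been handled side by side. A pool gives no value for a single animal. Unless stated otherwise, the p-values below come from fits with the replicate number as a block. They measure how the difference between FT and Sham varied among the same-numbered pairs of pools, not the spread between pools.

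The central and medial nuclei form the output side of the amygdala. Their neurons are mostly GABAergic and are told apart by the neuropeptides they make, among them somatostatin, enkephalin and CART. The medial nucleus and the bed nucleus of the stria terminalis (BNST) also hold vasopressin cells outside the hypothalamus, whereas oxytocin reaches the central amygdala mainly along fibres from hypothalamic neurons. Serotonin fibres from the raphe nuclei end in the same nuclei.

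Avp, the vasopressin gene, was the one transcript that edgeR called, so its promoter is shown first, beside that of Oxt, the oxytocin gene, which edgeR did not call. They are neighbouring genes on opposite strands of rat chromosome 3. The 250 bases before each RefSeq start site were read from the GRCr8 build, and lie at chr3:138248523-138248772 on the minus strand for Avp and at chr3:138235504-138235753 on the plus strand for Oxt. Capitals mark the one match to 2 words searched on both strands.
Avp: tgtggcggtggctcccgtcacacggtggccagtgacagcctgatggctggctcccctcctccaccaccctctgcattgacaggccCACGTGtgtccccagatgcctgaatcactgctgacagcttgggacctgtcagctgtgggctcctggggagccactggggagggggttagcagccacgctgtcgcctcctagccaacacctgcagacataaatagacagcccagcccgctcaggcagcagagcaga
Oxt: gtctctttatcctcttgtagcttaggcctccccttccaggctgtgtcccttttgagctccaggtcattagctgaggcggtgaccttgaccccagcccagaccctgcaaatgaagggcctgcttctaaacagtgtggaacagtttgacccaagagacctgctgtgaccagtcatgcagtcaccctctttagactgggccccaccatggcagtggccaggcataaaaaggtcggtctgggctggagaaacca
The Avp promoter held CACGTG, the canonical E-box, at position -165, a word that 5.59% of 33469 rat promoters of this length hold. The Oxt window did not hold it. Neither window held TGACGTCA, the cyclic AMP response element, which 1.59% hold. No binding was measured here.

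Total counts on transcripts were 10367710, 6429293, 18830074 and 14560727 in FT replicates 1, 3, 4 and 5, and 14121817, 6506385, 22260055 and 18931451 in the Sham replicates of the same numbers. Replicate 3 stood apart in both groups. Its 5 most abundant transcripts took 43.6% of the FT counts and 50.2% of the Sham counts, against 9.32% to 14.3% in the other 6 libraries. Replicates 4 and 5 detected 18191 to 19448 transcripts and replicates 1 and 3 detected 15389 to 16991, with the deeper libraries on the same side. Levels are given below as counts scaled to a common library size (CPM) after TMM scaling. They can be compared between libraries for a gene but not between genes of different length.

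The regional label was checked against marker genes in the libraries of the neighbouring basolateral amygdala (BLA), with CPM scaled over CMA, BLA and BNST together. Of 7 tested markers of the central and medial nuclei, 5 were lower in CMA than in BLA in all 8 matched library pairs. Adora2a, an adenosine receptor of striatal-type GABA neurons, had 4.85 ± 3.47 CPM (SD, n = 4) in Sham CMA and 87 ± 38 in Sham BLA. PENK, the enkephalin precursor, had 192 ± 42.8 and 1656 ± 682 CPM. Gad2, which makes GABA, had 41.7 ± 7.78 and 108 ± 14.9 CPM and was also lower in CMA in all 8. The order was the reverse for Neurod1, a transcription factor of glutamatergic neurons, which had 19.7 ± 9.08 CPM in Sham CMA and 3.35 ± 0.79 in Sham BLA and was higher in CMA in all 8. Cartpt, the CART precursor, was the only central marker that was higher in CMA in all 8, and Sst was higher in CMA in 4 of them. Of the other GABA genes Vip was higher in CMA in 6 of the 8 pairs and Pvalb in 1, and of the other pallial genes Nrgn was higher in CMA in 7 and CAMK2A in 4. Most of the central markers, Gad2 and Neurod1 thus go against the labels of these 2 regions, as does Nrgn in 7 of 8 pairs. Cartpt does not. Vip is counted on neither side, since among the Sham libraries of 25 regions its mean log2 level was highest in the cingulate cortex. CMA below means the libraries so labelled. Prkcd, Crh, Gad1 and Slc17a7, which would define the nuclei more sharply, have no identifier in the name list used here.

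**Figure D1:**
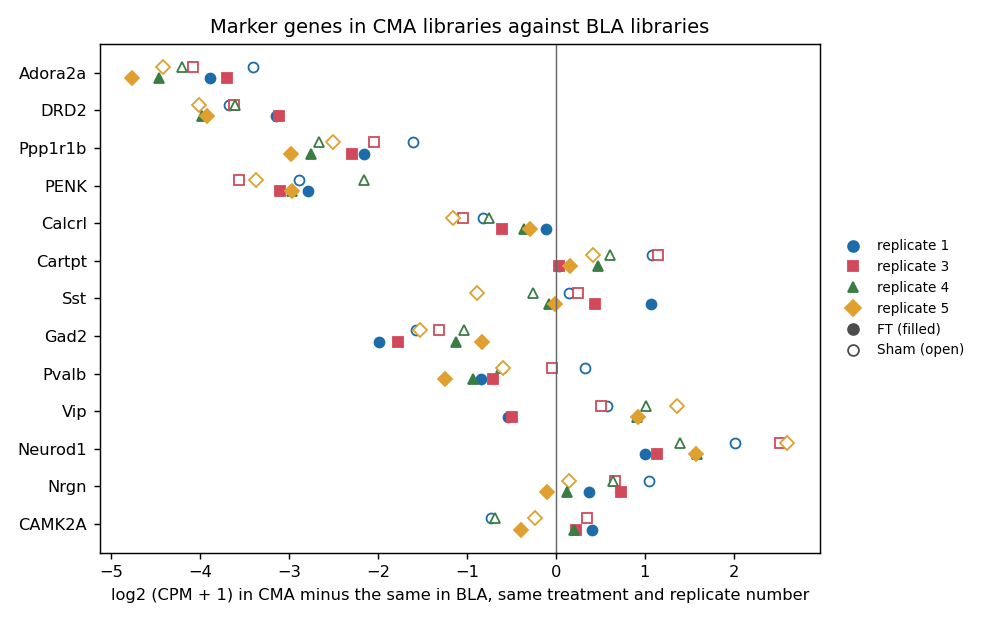
Each point is the difference of log2 (CPM + 1) between the CMA and the BLA library of 1 treatment and replicate number, for 13 marker genes; filled points are FT and open points are Sham. Adora2a, DRD2, Ppp1r1b, PENK, Calcrl and Gad2 lie left of 0 in all 8 pairs and Neurod1 and Cartpt right of 0.

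Of 13481 transcripts tested with edgeR's quasi-likelihood test, with the replicate number as a block, 1 was called at an adjusted p of at most 0.1 and an absolute log2FC of 0.32 or more. That transcript was Avp, and the background share of calls was 0.00742%. Before adjustment 1516 transcripts (11.2%) had a p under 0.05, of which 745 were higher and 771 lower in FT. DESeq2 with the same block called 321 transcripts (4.7%), 211 higher (3.09% of those with an adjusted p) and 110 lower (1.61%). Most of what follows therefore rests on DESeq2 calls that edgeR did not share, where the second lowest adjusted p was 0.279. The DESeq2 count fell far with any 1 replicate left out, and without the block DESeq2 made no call. Nor were higher calls the more numerous in every such setting, as given in the last section. The FT and Sham libraries did not overlap for 115 transcripts (0.853%).

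Avp (ENSRNOT00000028833), the vasopressin precursor, rose 7.5-fold. Its counts were 164, 1702, 59 and 130 in FT replicates 1, 3, 4 and 5 and 31, 148, 10 and 30 in the Sham replicates. These correspond to 13.1, 519, 2.4 and 6.82 CPM in FT and 1.93, 51.4, 0.356 and 1.08 CPM in Sham. Both replicate 3 libraries lay far above the others, so the groups overlapped, but within every pair the FT library was higher. The log2 ratios of the 4 pairs were 2.69, 3.33, 2.41 and 2.54. The log2FC was 2.91 ± 0.22 (SE), with an edgeR adjusted p of 0.00709 and a DESeq2 adjusted p of 1.25e-23. Without replicate 3 the log2FC was 2.73, with an edgeR adjusted p of 0.12, and without replicate 4 it was 2.94, with an edgeR adjusted p of 0.151. In a tissue punch, more vasopressin RNA per cell and more vasopressin cells cannot be told apart, and whether the RNA came from cells of the CMA was not tested.

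Across the Sham libraries of all 25 regions, the mean Avp level was 305 CPM in VMH, 197 CPM in LH, 45.8 CPM in MPOA and 12.4 CPM in CMA. In the libraries labelled PVN, the hypothalamic paraventricular nucleus, it was 1.90 CPM, below CMA. These means are set by replicate 3, which had 46.2 CPM in CMA against 2.01, 0.372 and 1.09 in Sham replicates 1, 4 and 5. Arc has Sham replicates 4 and 5 only, where it had 3.15 and 1.11 CPM, above CMA in both. VMH, LH and MPOA are the ventromedial and lateral hypothalamus and the medial preoptic area. Replicate 3 had the highest Avp level of the 4 Sham libraries in 21 of the 23 regions with 4 such libraries, and the same held for Oxt in 21 of 23. The FT effect on Avp in CMA without replicate 3 is given above.

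Oxt (ENSRNOT00000028829), the oxytocin precursor, had counts of 10, 287, 5 and 14 in FT and 2, 71, 2 and 7 in Sham. Its levels were 0.797, 87.4, 0.203 and 0.734 CPM in FT and 0.124, 24.7, 0.0711 and 0.251 CPM in Sham. As for Avp, replicate 3 was far above the others and the FT library was the higher of each pair. The log2FC was 1.81 ± 0.29 (SE), with an edgeR adjusted p of 0.279 and a DESeq2 adjusted p of 0.00218. With 2 to 14 counts outside replicate 3, its ratio in the other pairs is known only roughly, and without replicate 3 it did not pass edgeR's low-count filter.

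**Figure D2:**
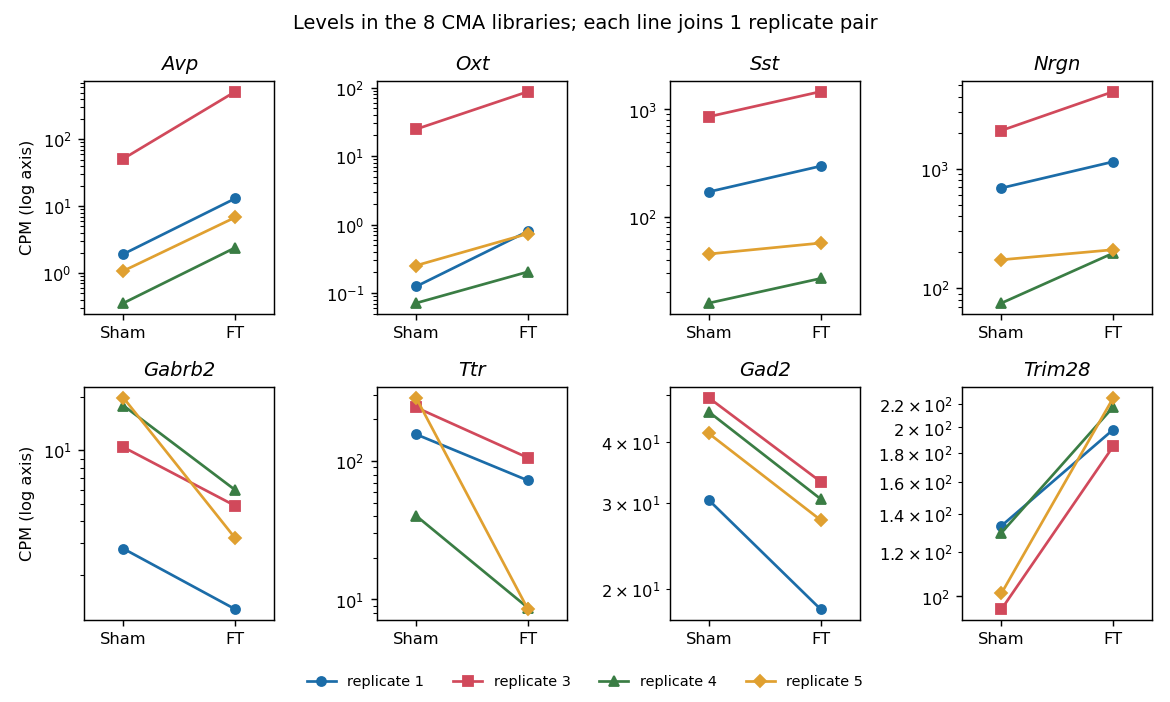
CPM on a log axis in the 8 CMA libraries for 8 genes, with a line from the Sham to the FT library of each replicate number. All lines rise for Avp, Oxt, Sst, Nrgn and Trim28 and all fall for Gabrb2, Ttr and Gad2, and of these genes Avp alone passed the edgeR test.

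Of 14 neuropeptide and peptide-processing genes with an identifier, 12 passed the low-count filter, and edgeR called 1 higher and 0 lower. DESeq2 called 3 higher (Avp, Oxt and Sst) and 1 lower (Cartpt), and the median log2FC of the 12 was 0.10, against -0.03 over all transcripts tested and 0.10 over the 1831 tested transcripts with a name, of which DESeq2 called 9.72% higher and 3.77% lower. DESeq2 gives no adjusted p to transcripts of low count and cannot call them, which held for 2 of the 12. Sst, the somatostatin precursor, had 297, 1467, 26.8 and 57.2 CPM in FT and 171, 858, 15.8 and 45.3 CPM in Sham. The FT library was again the higher of each pair while the levels of the pairs spanned far more than the treatment difference, with a log2FC of 0.67 ± 0.20 (SE) and a DESeq2 adjusted p of 0.0319. Cartpt had 18.3, 62.1, 8.59 and 8.76 CPM in FT and 35.2, 149, 9.85 and 19.1 CPM in Sham. It was lower in FT in 4 of 4 pairs, with a log2FC of -0.88 ± 0.22 (SE) and a DESeq2 adjusted p of 0.0423. PENK had 228 ± 146 CPM in FT and 193 ± 43.2 in Sham (SD, n = 4), and its pair ratios had both signs. Vgf had a log2FC of 0.71, and Vip, Gal, Nmb, Pcsk2 and Chga had log2FC values between -0.40 and 0.15, and none of these 6 was called by either tool. Hcrt, the orexin precursor of the lateral hypothalamus, had at most 10 counts in any CMA library and Npvf, an RFamide peptide precursor, at most 9, and neither passed the filter.

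Besides the 2 peptides, 8 named transcripts were called higher by DESeq2, were higher in FT in 4 of 4 pairs and had the lowest edgeR p values. Trim28, a corepressor that recruits histone methyltransferases to zinc finger proteins, had the highest CPM of them in the mean of the libraries. It had 198, 185, 218 and 226 CPM in FT and 134, 94.9, 130 and 101 CPM in Sham, so that the groups did not overlap. Its log2FC was 0.86 ± 0.19 (SE), with an edgeR adjusted p of 0.376 and a DESeq2 adjusted p of 0.00379. Trnau1ap, which takes part in selenocysteine insertion, had 38.5, 44.2, 40.6 and 42 CPM in FT and 26.5, 26.1, 15.3 and 18.4 CPM in Sham. Its groups did not overlap either, and its log2FC was 0.98 ± 0.21 (SE). The other 6 were Ttc9b (log2FC 0.98), Tceb3 (elongin A, 0.88), Arhgdig (0.83), Aacs (acetoacetyl-CoA synthetase, 0.83), Sco2 (a copper chaperone of cytochrome c oxidase, 0.82) and Dbndd1 (0.76). 

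The 10 lower transcripts chosen in the same way were led by B3galt1, a galactosyltransferase, and YME1L1, a mitochondrial inner membrane protease. B3galt1 had 5.66, 5.48, 16.7 and 12.3 CPM in FT and 10.4, 10.4, 34.5 and 30.8 CPM in Sham. It was lower in FT in each pair while replicates 4 and 5 stood at a higher level than 1 and 3, with a log2FC of -1.06 ± 0.20 (SE) and a DESeq2 adjusted p of 0.00853. Opcml, a cell adhesion molecule of neurons, had 43.6, 52.7, 76.9 and 65.8 CPM in FT and 78.1, 86.6, 155 and 136 CPM in Sham, and its groups did not overlap. Cd302, a C-type lectin receptor, had 12.4, 19.5, 21.1 and 16.5 CPM in FT and 34.9, 38.9, 39 and 26.3 CPM in Sham. Its groups did not overlap, and its log2FC of -1.01 ± 0.20 (SE) had a DESeq2 adjusted p of 0.00848. Ermn, a cytoskeletal protein of myelinating oligodendrocytes, had a log2FC of -1.03 and Cd48, a leukocyte surface protein, one of -1.25. YME1L1 had a log2FC of -1.17, and the remaining 4 were Plcxd3 (-0.87), Sec23a (a coat protein of vesicles leaving the endoplasmic reticulum, -0.82), Gltpd2 (-0.84) and Celf4 (an RNA-binding protein of neurons, -1.08).

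**Figure D3:**
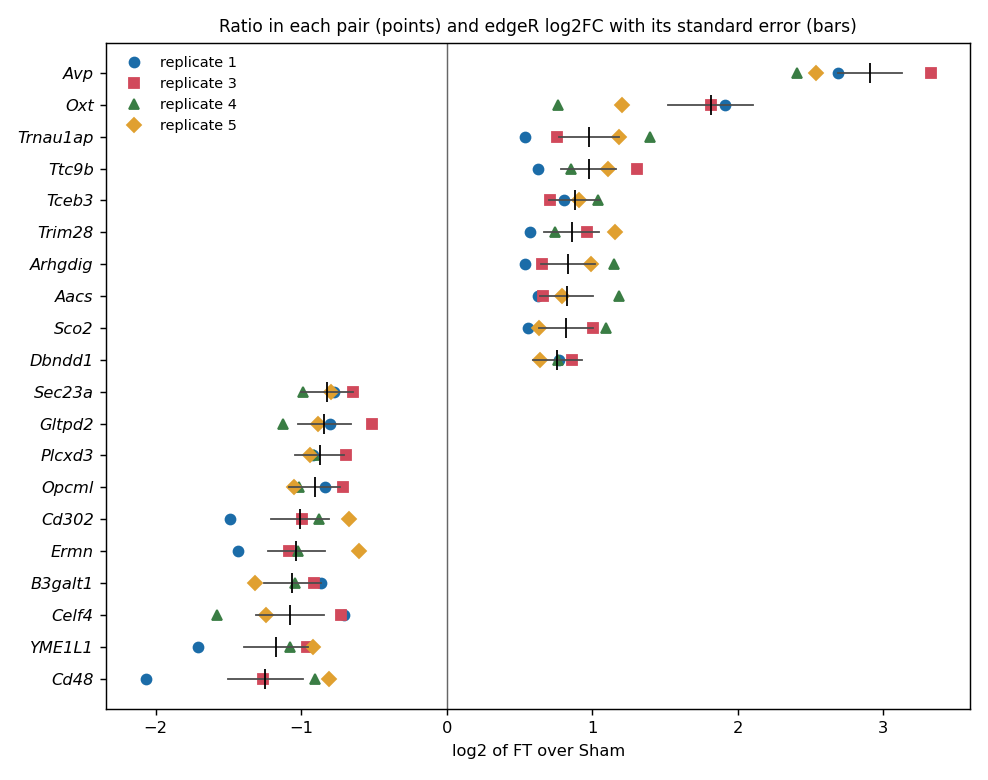
Log2 ratio of FT over Sham in each of the 4 pairs (points) and the edgeR log2FC with its standard error (bars) for the 20 named transcripts chosen by the DESeq2 call, the sign in all pairs and the edgeR p. Avp lies between 2.41 and 3.33 in all pairs, Oxt between 0.76 and 1.91, and the other 18 between -2.07 and 1.40.

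Of the 10 transcripts with the lowest edgeR p, 8 have no name, and 7 of these had similar log2 ratios, all lower in FT. ENSRNOT00000072709 had 703, 667, 64 and 68.5 CPM in FT and 1775, 10624, 653 and 450.1 CPM in Sham. FT was lower in all 4 pairs, with log2 ratios of -1.34, -3.99, -3.35 and -2.71. Over the 7, the log2FC ran from -2.87 to -2.74, with an edgeR adjusted p of 0.279 and DESeq2 adjusted p values of at most 1.79e-09. In 4 of them the log2 levels differed by at most 0.173 in every library, so that reads of near-identical copies may have been split among them and they cannot be read as separate genes. Together the 7 took 0.882%, 0.319%, 0.0747% and 0.0788% of the FT counts and 1.94%, 3.96%, 0.732% and 0.583% of the Sham counts.

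Of 6 GABA receptor subunit genes tested, 5 had a negative log2FC, with a median of -0.46, but neither tool called any (3 had no DESeq2 adjusted p) and 2 had an unadjusted edgeR p under 0.05, as 11.2% of all transcripts did. Gabrb2, the beta 2 subunit, had 1.27, 4.87, 5.98 and 3.2 CPM in FT and 2.8, 10.4, 17.9 and 19.8 CPM in Sham. It was lower in all 4 pairs, more so in replicates 4 and 5, with a log2FC of -1.69 ± 0.31 (SE), an unadjusted edgeR p of 0.000508 and an adjusted p of 0.376, and DESeq2 gave it no adjusted p. Gabrd, the delta subunit outside the synapse, was the exception at 0.40. Of the 3 GABA neuron genes, DESeq2 called Gad2 lower, against 3.77% of named transcripts, with 18.2, 33.2, 30.6 and 27.7 CPM in FT against 30.4, 49.4, 46.2 and 41.7 CPM in Sham. Its pair ratios were close to each other, from -0.74 to -0.57, and its DESeq2 adjusted p was 0.0872. Vip and Pvalb, which mark interneurons, had log2FC values of -0.37 and -0.13.

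On the excitatory side, neither tool called any of 7 glutamate receptor and scaffold genes, 3 of which had no DESeq2 adjusted p, and their median log2FC was -0.46. In pairs 1 and 3 their median ratio was 0.28, whereas pair 4 had -0.65 and pair 5 had -0.64. Nrgn, a calmodulin-binding protein of excitatory neurons, had 1146, 4414, 197 and 211 CPM in FT and 690.2, 2088, 75.4 and 174 CPM in Sham. DESeq2 called it higher, as it did 9.72% of named transcripts, with an adjusted p of 0.0158 and a log2FC of 0.87 ± 0.25 (SE), while Neurod1 (-0.43) and CAMK2A (-0.41), the other 2 markers of pallial glutamate neurons, were called by neither tool. The CAMK2A pair ratios were 0.06, -0.12, 0.15 and -1.78, so its value came from pair 5. Those of Neurod1 were -1.04, -0.64, 0.55 and -0.62. The pan-neuronal genes Thy1, Nefh and Tubb3 lay between -0.35 and 0.14.

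Of 10 potassium channel genes 7 had a negative log2FC, with a median of -0.72, and DESeq2 called 2 lower and 0 higher, beside 3.77% of named transcripts called lower and 827 of 1831 with a negative log2FC. DESeq2 gave no adjusted p to 6 of the 10. The 2 called lower were Kcnj3, a G protein-gated inward rectifier that inhibitory receptors open, at -0.79 (DESeq2 adjusted p = 0.0676), and Kcnab1, an auxiliary subunit, at -0.66 (DESeq2 adjusted p = 0.0872). Of 6 vesicle release genes DESeq2 called Rab3a and Syp, both proteins of synaptic vesicles, higher and Napb and Syt4 lower, against 9.72% of named transcripts called higher. Rab3a had 741, 1502, 172 and 601 CPM in FT and 560, 917, 94 and 278 CPM in Sham and was higher in all 4 pairs. Napb, which recycles SNARE complexes, had a pair ratio of -0.05 in replicate 1 and of -1.89 and -1.81 in replicates 4 and 5.

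Glial markers had no common direction. Of 6 oligodendrocyte genes, DESeq2 called Ermn and Ugt8, a myelin lipid enzyme, lower (-1.03 and -1.03) and Sox10, a lineage transcription factor, higher (0.62, DESeq2 adjusted p = 0.0947), against 9.72% of named transcripts called higher and 3.77% lower. Their summed level was 117, 104, 173 and 153 CPM in FT and 173, 144, 265 and 182 CPM in Sham, lower in FT in each pair. Opalin, a protein of myelinating oligodendrocytes, had a log2FC of -0.61 and was called by neither tool. Of 6 astrocyte genes DESeq2 called Gja1, the gap junction protein connexin 43, lower. Gja1 had 148, 215, 263 and 234 CPM in FT and 284, 341, 507 and 362 CPM in Sham, and the groups did not overlap. In replicate 3 the astrocyte sum was nearly all Apoe, the member with the highest mean CPM, which had 34654 CPM in FT replicate 3 and 25540.0 CPM in Sham replicate 3. The microglia genes C1qa, a complement subunit, and Cx3cr1, the fractalkine receptor, were called by neither tool, with log2FC values of 0.33 and -0.79. No member of these marker lists was at 0 in any CMA library.

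Ttr, the transthyretin made in the choroid plexus, and Hbb, a haemoglobin chain, were called lower by DESeq2. Ttr had 72.4, 106, 8.71 and 8.5 CPM in FT and 156, 244, 40.3 and 287 CPM in Sham, with pair ratios from -5.06 in replicate 5 to -1.11 in replicate 1. FT was the lower in all 4 pairs, by very different amounts, and its DESeq2 adjusted p was 0.00387. Hbb had a log2FC of -0.80 (DESeq2 adjusted p = 0.00785), but Hbb-b1, the other blood gene, had 81.2 ± 65.2 CPM in FT and 83.4 ± 75.7 in Sham (SD, n = 4). The part of neighbouring ventricular tissue or blood in the other results was not tested.

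Of the serotonin genes only Htr1a, the inhibitory autoreceptor and heteroreceptor, has an identifier. Its counts were 7, 8, 5 and 2 in FT and 7, 13, 16 and 44 in Sham, and with a log2FC of -1.40 ± 0.62 (SE) and an edgeR adjusted p of 0.447 no difference was detectable at this depth. Fos, the immediate early gene, had 29.9, 18.6, 24.8 and 18 CPM in FT and 21.1, 13.6, 13.3 and 14.4 CPM in Sham and was higher in all 4 pairs, with an edgeR adjusted p of 0.393 and a DESeq2 adjusted p of 0.16. The 4 genes of neurotrophin, cyclic AMP and kinase signalling had negative log2FC values, as did 827 of 1831 named transcripts. Only 1 of the 4 was lower in all pairs. Their median ratio was 0.07, -0.29, -0.81 and -1.85 in pairs 1, 3, 4 and 5. Ntrk2, the receptor of brain-derived neurotrophic factor, had 148 ± 29.6 CPM in FT and 208 ± 33.3 in Sham (SD, n = 4), a log2FC of -0.50 and an edgeR adjusted p of 0.444. Among 6 stress and glucocorticoid genes, 3 of them without a DESeq2 adjusted p, neither tool made a call. Nr3c2, the mineralocorticoid receptor, had a log2FC of -1.08 at 3.08 ± 2.45 CPM in FT and 5.85 ± 3.58 in Sham, and Fkbp4, a chaperone of steroid receptors, one of 0.48.

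Of 30 genes for import and the mitochondrial ribosome 25 had a positive log2FC, with a median of 0.34, and DESeq2 called 3 higher (Tomm6, Mrpl12 and Mrpl55) and 0 lower, a share close to the 9.72% of named transcripts. A positive log2FC was found for 54.8% of named transcripts. Of 29 respiratory chain subunits 23 were positive, with a median of 0.28, and DESeq2 called Ndufv1 of complex I higher. The respiratory chain median was -0.12, 0.09, 0.16 and 0.76 in pairs 1, 3, 4 and 5, whereas the named transcripts as a whole had medians of 0.10, 0.09, 0.18 and 0.33. Tomm6, a subunit of the outer membrane import pore, had 426, 481, 142 and 190 CPM in FT and 279, 258, 94.1 and 98 CPM in Sham and was higher in each pair. Of 6 proteasome subunits 5 were positive (median 0.41), and DESeq2 called Psma7 and Psmd8 higher. The 26 cytosolic ribosomal protein genes, which have many near-identical copies, had a median of -0.20 and no call by either tool. Every transcript with a name was one that the study had called in 2 or more regions, so that the counts of these lists are not independent of the study's own calls.

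Among 19 chromatin regulators DESeq2 called 5 higher and 1 lower, and 9 were higher in FT in all 4 pairs. Of the 1831 named transcripts 9.72% were called higher and 3.77% lower, and 490 were higher in all 4 pairs. The 5 were Trim28, Setdb1 (the histone H3 lysine 9 methyltransferase that Trim28 recruits, log2FC 1.00), Jmjd6 (0.81), Smarcd3 (a chromatin remodelling subunit, 0.64) and Hdac11 (a histone deacetylase, 0.64), and the lower one was Kmt2d (a histone H3 lysine 4 methyltransferase, -0.85). Kmt2d had 130 and 202 CPM in the 2 replicate 3 libraries and at most 16.0 elsewhere. Of the 3 clock-related genes DESeq2 called Dbp, a transcription factor driven by the clock, and Cirbp, a cold-inducible RNA-binding protein, higher, and Tef had a log2FC of 0.35. The 2 sterol genes went opposite ways, with Mvd at 0.53 and Idi1 at -0.90, and of 2 stress response genes Sdf2l1 was at 0.96 and Hspb1 at 0.27. None of these 4 was called by either tool, and Sdf2l1 and Hspb1 had no DESeq2 adjusted p.

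**Figure D4:**
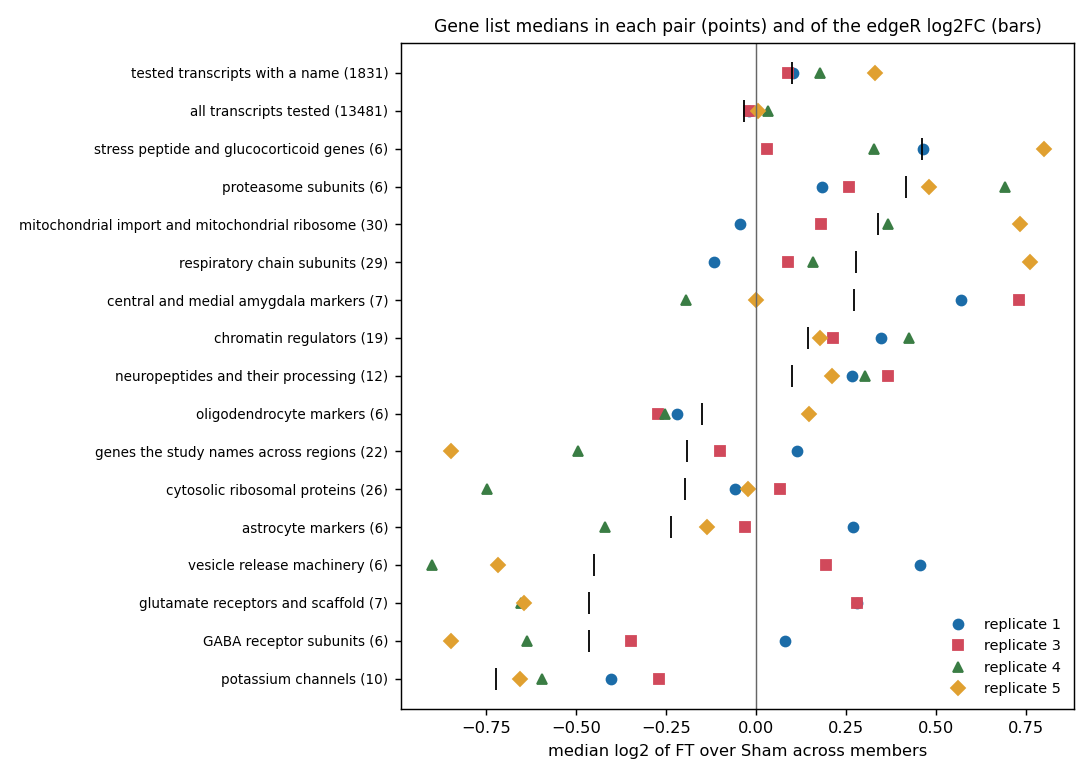
Median log2 ratio of FT over Sham in each pair (points) and median edgeR log2FC (bars) for gene lists with 6 or more tested members, with the number of members in brackets, and for all and for named transcripts. The medians of replicates 1 and 3 lie apart from those of replicates 4 and 5 for the glutamate receptor, vesicle release and central amygdala lists.

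The 4 pairs fell into 2 kinds. Across 13481 transcripts the log2 ratios of pairs 1 and 3 had a Pearson r of 0.435 and those of pairs 4 and 5 one of 0.479, whereas the 4 mixed combinations lay between -0.10 and 0.03. These are descriptions across transcripts, which are not independent replicates, and no 2 pairs share a library. Cirbp had 207 and 98.1 CPM in FT replicates 1 and 3 against 203 and 95.6 in Sham. In replicates 4 and 5 it had 533 and 617 CPM in FT against 137.4 and 123.5 in Sham. Its difference therefore lay in replicates 4 and 5 alone, with pair ratios of 0.03, 0.04, 1.96 and 2.32. Otub1, a deubiquitinase, had 1595 and 708 CPM in FT replicates 1 and 3 against 1497 and 508 in Sham, and 1483 and 1949 in FT replicates 4 and 5 against 415 and 663 in Sham. Mat2a, which makes S-adenosylmethionine, went the other way, with ratios of -0.08, -0.18, -1.87 and -2.12, and so did Prkacb, a catalytic subunit of protein kinase A (0.21, -0.39, -1.90 and -1.92). Some genes also differed in level between the 2 kinds of replicate: Mrpl51 had 30.4 and 18.6 CPM in FT replicates 1 and 3 and 1005 and 1292 in FT replicates 4 and 5. The labels give no batch that separates these replicates, and the division was seen in the data after the tests.

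**Figure D5:**
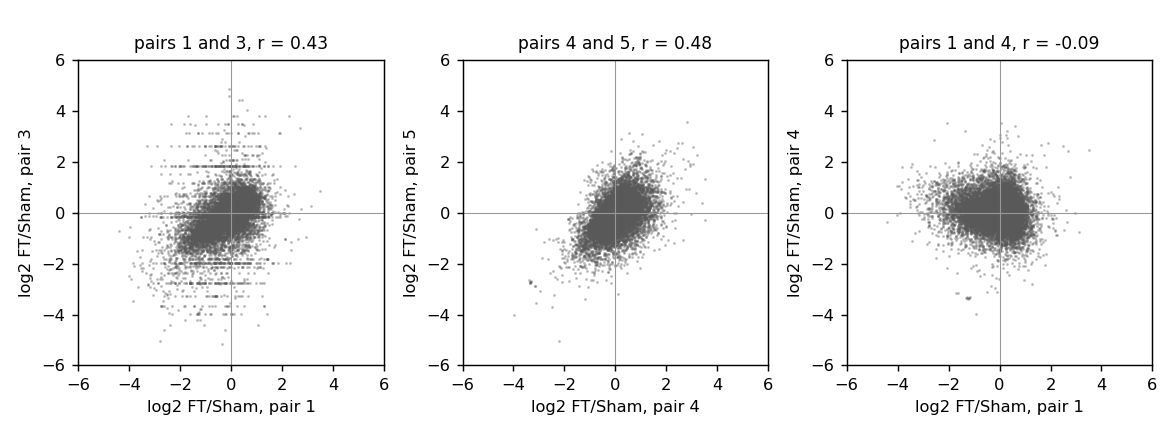
Log2 ratio of FT over Sham of 13481 transcripts in one pair (horizontal) against another (vertical), for pairs 1 and 3, 4 and 5, and 1 and 4, with Pearson's r. The first 2 clouds are tilted and the third is not; horizontal rows of points in pair 3 are transcripts with few counts there.

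Of all transcripts tested, 3068 (22.8%) had the same sign in all 4 pairs, 1611 higher and 1457 lower. Of the 320 DESeq2 calls that edgeR had tested, 314 were among them. That is no separate support for the calls, because a test with the replicate block favours transcripts whose pairs agree in sign. Dbndd1 (0.64 to 0.86), Tceb3 (0.71 to 1.04), Gad2 (-0.74 to -0.57) and Opcml (-1.05 to -0.71), named here after their values were seen, had log2 ratios that overlapped between the 2 kinds of replicate or lay close together.

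Of 22 tested genes that the study names across regions, DESeq2 called 4 higher and 3 lower in CMA (7 had no adjusted p), against 9.72% and 3.77% of named transcripts, and their median log2FC was -0.19. The study chose this list on these samples. Otub1 (0.99), Trim28 (0.86), Commd4 (0.88) and Pdrg1 (0.88) were the higher ones, and Napb (-1.21), Cds2 (-1.36) and Chrm1 (the muscarinic M1 receptor, -1.26) the lower ones. Cds2, an enzyme of phosphatidylinositol synthesis, had 0.558, 96.9, 0.57 and 0.734 CPM in FT and 0.497, 143, 2.99 and 3.66 CPM in Sham. Only replicate 3 held it at a level well above 4 CPM, and its log2 ratios were 0.14, -0.56, -2.17 and -2.15.

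The FT effect was then compared with that in BLA, the neighbouring amygdala, and in BNST, which belongs with the central and medial nuclei to the extended amygdala, by tests of the difference of effects. Of 14497 transcripts 3 differed between CMA and BLA (0.0207%), of which 1 (0.0069%) had the higher effect in CMA and 2 (0.0138%) the lower, and 1 of 14660 differed between CMA and BNST (0.00682%). Unadjusted, 1476 (10.2%) and 1162 transcripts (7.93%) had a p under 0.05. Tested alone, BLA gave 0 calls (0.0%) and BNST 8 (0.0589%) in edgeR. The named transcripts among the calls were NUPR1 and Cck, which were singled out after their values were seen.

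NUPR1, a stress-induced nuclear protein, had CPM of 27, 11.7, 44.9 and 36 in FT CMA and 53, 25, 39 and 42.8 in Sham CMA, scaled over the 3 regions. In BLA it had 22.5, 10.3, 19.8 and 21.9 CPM in FT and 15.6, 7.3, 9.71 and 8.87 in Sham. The FT library was the higher of each BLA pair and of 1 CMA pair. The difference of the log2 effects was -1.32 ± 0.18 (SE), with an edgeR adjusted p of 0.0967. NUPR1 was not called without replicate 3 (edgeR adjusted p = 0.687), with separate replicate blocks only or with no block. Cck, the cholecystokinin precursor, had 88.6, 848, 34.2 and 53.8 CPM in FT CMA and 82.3, 648, 21.5 and 15.2 in Sham CMA. In BNST it had 6.21, 33.4, 6.43 and 10.3 CPM in FT and 13.3, 47.1, 10.3 and 7.99 in Sham. Its difference was 1.27 ± 0.17 (SE), with an edgeR adjusted p of 0.0507, and the FT library was the higher of each CMA pair and of 1 BNST pair. Cck was not called without replicate 3 (edgeR adjusted p = 0.272), with separate replicate blocks only or with no block.

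Avp had few counts in BLA, with 32, 59, 2 and 1 in FT and 10, 29, 1 and 2 in Sham, and its effect was larger in CMA by 1.68 ± 0.40 (SE) on the log2 scale. That difference had an unadjusted edgeR p of 0.00114 and an adjusted p of 0.271. In BNST Avp had 179, 1541, 9 and 9 counts in FT and 5, 20, 10 and 13 in Sham, so that the FT library was much the higher in replicates 1 and 3 but not in 4 and 5. The effect in CMA minus that in BNST was -0.77 ± 0.64 (SE), and 0.72 without replicate 3. Oxt had 19, 725, 33 and 13 counts in FT BNST and 28, 501, 30 and 38 in Sham BNST. Its effect in CMA minus that in BNST was 2.05 ± 0.32 (SE), with an unadjusted edgeR p of 2.07e-05 and an adjusted p of 0.141. Trim28 had a log2FC of 1.22 in BLA and 1.08 in BNST, and Otub1 of 1.06 and 1.22. The effect in CMA minus that in the other region was -0.39 to -0.09 for these genes, and none of the differences was called. Gad2 had a log2FC of -0.57 in BLA and -0.19 in BNST, and Sst 0.10 in BLA and 0.89 in BNST, and neither difference from CMA was called. Ttr in BLA had 5046, 13115, 506 and 1126 CPM in FT and 3958, 14027, 222 and 49.1 CPM in Sham. It was higher in BLA than in CMA in 7 of 8 matched pairs, Sham replicate 5 being the exception (287 CPM in CMA). Its log2FC was 1.30 in BLA, and the effect in CMA minus that in BLA was -3.58 ± 1.06 (SE), with an unadjusted edgeR p of 0.00532 and an adjusted p of 0.335.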

How the data were processed

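Raw read counts per Ensembl transcript were used as deposited. Per the labels, the authors sequenced paired 76 bp reads. The protocol names a stranded total RNA kit whereas the molecule is labelled polyA RNA, and which holds could not be settled. The submitters' processing notes name STAR, HTSeq, FastQC and the rn5 build. Their versions and the strand setting are not given in the sources used here, so overlapping antisense transcripts cannot be told apart. Each deposited count table lists 29188 transcripts, and its 5 summary lines were dropped. Reads without a feature made up 19.9% to 46.2% and ambiguous reads 3.25% to 7.62% in the CMA libraries. Depth ranged from 6429293 to 22260055 counts, so that 1 CPM was 6.43 to 22.3 counts.

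FT was compared with Sham in edgeR 4.0.16 (limma 3.58.1, R 4.3.3) by the quasi-likelihood test, with TMM factors, filterByExpr (minimum count 10, minimum total 15) and the replicate number as a block. A transcript was called at an absolute log2FC of 0.32 or more and a Benjamini-Hochberg adjusted p of 0.1 or less. DESeq2 1.42.0 with the block was the main alternative. The block follows the study's methods, in which replicate numbers are batches. Same-numbered FT and Sham libraries deviated together from their group means (r = 0.698, 0.858, 0.811 and 0.704 for replicates 1, 3, 4 and 5). Across numbers, FT replicate 4 with Sham replicate 5 had 0.735 and FT replicate 5 with Sham replicate 4 had 0.702, so that for these replicates the pairing rests on the study's methods. Differences between regions were tested as interactions, with blocks for each replicate of each region and a treatment effect per replicate number shared by the regions. The standard error of a log2FC was taken from its F statistic. On simulated counts for the CMA comparison over 13481 transcripts, edgeR called 52 of 100 transcripts changed by 1 on the log2 scale, 97 of 100 changed by 2 and 10 unchanged transcripts. DESeq2 called 54, 97 and 20. All simulated transcripts had the same dispersion (0.0742), and a changed one had the same change in every pair. In the data the pair ratios fell into 2 kinds, as given above, so these shares need not hold for the real transcripts.

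Names came from the study's supplementary list of transcripts called in several regions (1845 matched), and promoters from RefSeq. The members and the 29 gene lists were chosen with earlier results of these data known. Of the lists, those of dentate granule cells and of endothelial and mural cells had no identifier. Named were the transcripts that edgeR called, then up to 10 higher and 10 lower with the smallest edgeR p among those that DESeq2 called and that had the same sign in 4 of 4 pairs, and from each list the member with the highest mean CPM and the member with the smallest p in each direction. Others are given as list members or were singled out after their values were seen. Some of the list members so chosen are not described above. Among them are Slc7a10 (log2FC 0.69), Uqcrc2 (-0.50), Psmd10 (-0.77), Grin2c (0.59), Grm7 (-0.50), Rps15a (-0.65) and Cbx6 (0.48), which neither tool called. The authors' own fold changes and p-values were not used. Figures were drawn with matplotlib 3.10.9. One member of the microglia list is not reported here.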

Additional observations from a re-analysis of the deposited data

Results flagged for a closer look

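In 25 of 176 groups of 4 CMA libraries 1 library lay far from the other 3 (a gap over the range past Dixon's critical value, which chance passes in about 5% of groups). Replicate 3 was the high library in 12 FT and 12 Sham groups, so that these flags are not independent of each other. For the peptides its FT and Sham levels were 518.5 and 51.45 CPM for Avp, 87.43 and 24.68 CPM for Oxt and 884.1 and 676.1 CPM for Cck. Among glial and blood genes they were 34650 and 25540.0 CPM for Apoe and 1095 and 2134 CPM for Hbb. For neuronal and other genes they were 44.48 and 73.69 CPM for Celf4, 174.3 and 142.5 CPM for Dlg4, 130.1 and 202.0 CPM for Kmt2d, 96.88 and 143.2 CPM for Cds2, and 5593 and 3416 CPM for Cox6a1. The 5 most abundant transcripts took 43.584% and 50.188% of replicate 3's counts, and the 50 most abundant 59.234% and 67.836%. The one other case was Fos in Sham replicate 1, at 21.13 CPM. Why replicate 3 stood apart was not tested.

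Between regions, the FT effect differed by edgeR's interaction test for 4 transcripts. CMA minus BLA was -1.324 for NUPR1, -1.499 for ENSRNOT00000005311 and 0.982 for ENSRNOT00000022943 on the log2 scale, each with an edgeR adjusted p of 0.0967. CMA minus BNST was 1.265 for Cck, with an edgeR adjusted p of 0.0507.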

How the results depend on the processing

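The number of called transcripts depended on the tool and on the libraries. Against the 1 call of edgeR (1 higher, 0 lower), DESeq2 gave 321 (211 higher, 110 lower) and edgeR without a low-count filter 258 (117 higher, 141 lower). Without the replicate block edgeR gave 0 calls (0 higher), DESeq2 without the block also gave 0, and the Avp log2FC was 3.36 with an edgeR adjusted p of 1. With 1 replicate left out edgeR gave 0 to 38 calls (0 to 15 higher, 0 to 23 lower), 38 without replicate 1, 0 without 3 or 4 and 1 without 5. DESeq2 gave 33 to 138 (82, 12, 22 and 33 higher and 56, 21, 22 and 98 lower without replicates 1, 3, 4 and 5, in all 138, 33, 44 and 131), a setting chosen after seeing the data. The Avp log2FC lay between 2.73 and 2.996 in edgeR with 1 replicate left out. The cause of these shifts was not tested, beyond the smaller number of samples. Called differences between CMA and BLA numbered 0 with separate replicate blocks only and 0 with no replicate block, and 0 to 88 with 1 replicate left out (88, 0, 20 and 21 without replicates 1, 3, 4 and 5). For BNST they were 0, 0 and 0 to 13 (3, 0, 10 and 13). Of 83 named genes 76 kept their sign in all 15 settings that could be run for them and 7 did not. PENK, near 0, was 0.032 in DESeq2, 0.24 without the block, 0.0334 with RLE factors, 0.041 with no filter, 0.0418 without the 50 most abundant transcripts, -0.28 to 0.25 with 1 replicate left out (0.18 without 4), and 0.28, 0.26 and 0.30 in DESeq2 without the block, replicate 4 or replicate 5. Tubb3 was 0.0801 without the block and -0.80 to 0.15 with 1 replicate left out, the highest without 5 (DESeq2 0.13 and 0.20). Dlg4 was 0.15 without the block, Rpl41 0.0057 in DESeq2 without it, and Mrpl51 -0.0892 without replicate 5 to 1.00 without 1 (DESeq2 without 5, -0.0499). Thy1 ran from -0.0403 without replicate 3 to 0.39 without 5 (DESeq2 without 3, -0.0072), and Hbb-b1 was -0.0378 without the block and -0.053 to 0.10 with 1 replicate left out, the lowest without 1 (DESeq2 -0.0235). The Avp effect in CMA minus BNST was -1.51 without replicate 5 to 0.72 without replicate 3. Replicate 3, with 6429293 and 6506385 counts, was the shallowest pair and held most of the Avp and Oxt counts. The edgeR call of Avp was lost without replicate 3 and also without replicate 4, and why was not tested.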
